A study of Mus musculus with 9 samples.

Results

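The messenger RNA of 10 genes that write, read or remove DNA methylation, or that build the core of Polycomb repressive complex 2 (PRC2), was followed in mouse iCCA (intrahepatic cholangiocarcinoma) cells with and without an intact Vcam1 gene. The 10 were taken by gene symbol and not by a rule on measured values, but with earlier results of these data known. They are Dnmt1, Uhrf1, Dnmt3a, Dnmt3b, Tet1, Tet2, Tet3, Ezh1, Ezh2 and Eed. All 10 were found among the 55276 symbols of the deposited table, and all 10 were among the 17672 genes that passed edgeR's filter on low counts.

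The cells were PPTR cells, a line grown from liver cancer organoids of mice that carried Prom1CreERT2 and a Rosa-ZsGreen reporter, and every group shares the alleles of that line. The control culture, called Vcam1ctrl here and wild type in the sample labels, was compared with Vcam1KO1 and Vcam1KO2, each of which is 1 single-cell clone edited by Cas9 in exon 2 of that gene. Stranded, polyA-selected RNA libraries were sequenced in pairs of reads, with 3 libraries per group and 9 in all, and within a group they are called replicates 1 to 3. Cells came from 3 different passages, so the p values of each clone rest on the spread between passages within a culture or clone. That spread is estimated in 1 fit over all 9 libraries, so it also draws on the clone that is not compared. In the comparison of both clones with control, differences between the clones count as spread too. There the 6 libraries of 2 clones are treated as 6 separate samples. A trait of a clone cannot be told apart from the loss of Vcam1.

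Dnmt1 copies methylation of CpG sites onto new DNA strands after replication, and Uhrf1 brings it to sites methylated on the old strand only. Dnmt3a and Dnmt3b add methyl groups to unmethylated DNA, and the Tet dioxygenases oxidise 5-methylcytosine, which starts its removal. PRC2 methylates lysine 27 of histone H3 through Ezh2, most abundant in dividing cells, or through its paralog Ezh1, and Eed holds the complex together and binds the mark it makes.

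Libraries held between 53415907 and 125223073 counts (median 65750813), and levels are given in CPM, counts relative to a library size scaled with TMM. Vcam1 itself stood at 248, 221 and 329 CPM in the Vcam1ctrl libraries, at 98.8, 92.4 and 128 in Vcam1KO1 and at 119, 99.4 and 83.0 in Vcam1KO2. Its messenger was thus lower in all 6 clone libraries but present in each. The paper reports loss of Vcam1 expression in both clones by quantitative RT-PCR and flow cytometry, and these counts do not measure the protein. The clones also differed from the control in markers of cell type: 4 of 7 biliary genes were lower in the Vcam1KO libraries and 1 was higher by edgeR's test, with Krt19 at 2129 to 2406 CPM in control libraries and 0.0160 to 0.226 CPM in clone libraries. The defining epithelial gene Epcam had 0 counts in 3 of the 6 clone libraries. The summed level of the 7 biliary genes was 4540 to 5798 CPM in control and 7634 to 11081 in clone libraries, carried by Spp1. Over 5 genes each, fibroblast markers summed to 393 to 765 CPM in control and 5789 to 10481 in clone libraries, and hepatocyte markers to 418 to 730 and 0.355 to 3.06 CPM. The fibroblast sum in the clones was carried mostly by Col1a1, at 4199 to 9204 CPM. By edgeR 2 fibroblast genes were higher and 1 lower in Vcam1KO1, and 3 were higher and 0 lower in Vcam1KO2. The lower gene was Dcn, at 58.3 to 105 CPM in control and 2.16 to 8.35 in Vcam1KO1. Haematopoietic markers summed to 7.47 to 20.7 and 5.08 to 9.37 CPM, and endothelial markers to 0.812 to 2.02 and 0.657 to 1.56 CPM. Cftr, another biliary gene, stood at 7.45 to 9.79 CPM in control and 0 to 0.0209 CPM in clone libraries. By Krt19, Epcam and Cftr the clone libraries thus go against the label of cholangiocarcinoma cells, and whether the clones have the same origin as the control was not tested. This holds for every value against control. What part these shifts have in the levels of the 10 genes was not tested. Replicate 3 of Vcam1KO1 stood apart: a list of 40 proliferation genes had a mean log2 CPM of 3.53 there and of 5.32 to 6.96 in the other 8 libraries.

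The starts of 5 of the genes are shown for 2 reasons: Dnmt1, Uhrf1 and Ezh2 were lowest in the library where the proliferation list was lowest and highest in the library where it was highest, and Tet1 and Ezh1 passed the test between clones and control. Each sequence is a RefSeq promoter window on GRCm38.p6 of 300 bases, from 250 bases before a transcript start to 50 bases after it, on the strand of the gene. Capitals mark letters of the kind E2F factors, which switch on genes of DNA replication, are known to bind. The letters searched were TTTCCCGC, TTTCGCGC, TTTGCCGC and TTTGGCGC on both strands, and they were present in 744 of 32851 windows (2.26%). Of the 10 genes, with 15 windows between them, Dnmt1, Uhrf1 and Ezh2 had such letters. The windows lie at chr9:20952574-20952873 (minus strand, the third of 3 windows of Dnmt1), chr17:56304063-56304362 (plus strand, the second of 2 windows of Uhrf1), chr6:47594981-47595280 (minus strand, Ezh2), chr10:62887275-62887574 (minus strand, Tet1) and chr11:101226414-101226713 (minus strand, Ezh1).
Dnmt1: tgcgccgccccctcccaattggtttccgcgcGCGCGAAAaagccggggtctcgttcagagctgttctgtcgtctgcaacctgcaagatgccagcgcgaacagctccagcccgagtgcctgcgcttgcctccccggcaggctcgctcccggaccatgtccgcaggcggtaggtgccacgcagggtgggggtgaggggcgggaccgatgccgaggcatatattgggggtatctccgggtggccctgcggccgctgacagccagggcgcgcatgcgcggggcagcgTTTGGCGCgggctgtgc
Uhrf1: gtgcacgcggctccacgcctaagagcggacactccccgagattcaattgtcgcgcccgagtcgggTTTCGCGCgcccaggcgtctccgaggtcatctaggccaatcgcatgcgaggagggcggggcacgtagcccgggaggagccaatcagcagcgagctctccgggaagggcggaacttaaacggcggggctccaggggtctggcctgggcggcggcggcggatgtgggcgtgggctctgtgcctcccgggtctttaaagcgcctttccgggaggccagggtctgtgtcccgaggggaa
Ezh2: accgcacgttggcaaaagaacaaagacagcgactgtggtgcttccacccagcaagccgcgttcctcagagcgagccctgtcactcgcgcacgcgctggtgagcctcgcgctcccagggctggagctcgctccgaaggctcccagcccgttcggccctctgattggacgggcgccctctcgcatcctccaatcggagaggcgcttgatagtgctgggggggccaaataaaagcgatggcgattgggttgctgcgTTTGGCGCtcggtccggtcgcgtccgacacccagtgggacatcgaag
Tet1: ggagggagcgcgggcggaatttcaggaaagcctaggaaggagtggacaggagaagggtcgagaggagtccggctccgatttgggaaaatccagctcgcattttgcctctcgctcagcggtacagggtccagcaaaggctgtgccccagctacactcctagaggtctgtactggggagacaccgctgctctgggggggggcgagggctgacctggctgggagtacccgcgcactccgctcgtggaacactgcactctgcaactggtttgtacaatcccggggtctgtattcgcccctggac
Ezh1: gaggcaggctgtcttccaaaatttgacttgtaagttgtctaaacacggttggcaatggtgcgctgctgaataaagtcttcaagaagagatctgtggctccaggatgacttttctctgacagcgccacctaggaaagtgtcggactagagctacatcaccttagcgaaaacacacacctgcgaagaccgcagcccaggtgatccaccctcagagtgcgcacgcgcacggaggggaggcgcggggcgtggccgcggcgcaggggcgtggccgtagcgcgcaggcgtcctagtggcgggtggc
The letters in Dnmt1 began 219 bases before the start, as the reverse complement, and 33 bases after it. In Uhrf1 they began 185 bases before the start and in Ezh2 3 bases after it. The windows of Tet1 and Ezh1 held none of the 4 words. The Tet1 window lies inside the span of that gene in GENCODE vM21, which runs up to 62908996 on chr10. Any Tet1 start farther upstream was not searched. These 5 windows hold 33, 33, 31, 17 and 23 CpG dinucleotides in the order printed, against a median of 7 over all windows. The windows of Dnmt1 and Uhrf1 were picked for the words, which contain CpG, and the windows of these genes not printed hold 2 and 12 (Dnmt1) and 12 (Uhrf1). A match of letters is a description of the sequence and no evidence of binding, and the words were chosen with earlier results of these data known.

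In the comparison of both clones with control, Tet1 rose and Ezh1 fell, and the other 8 genes did not pass. A gene was taken to pass at an adjusted p under 0.05, from the quasi-likelihood test of edgeR and Benjamini-Hochberg adjustment over all 17672 genes. By that rule 1 of the 10 genes was higher and 1 lower, while 43.0% of all tested genes passed, 21.7% higher and 21.2% lower. Without replicate 3 of Vcam1KO1, 2 of the 10 were higher and 1 lower, while 7913 of all 17369 genes tested in that fit passed. The median log2 fold change of the 10 was 0.07, equal at this precision to the 0.07 of all tested genes. Against the same 3 control libraries, Vcam1KO1 had Dnmt3a, Tet1 and Tet3 higher and none of the 10 lower (background 59.9% called, 29.9% higher and 30.0% lower), although 4 of the 10 had an unadjusted p under 0.05, limma-voom also called 0 lower and DESeq2 called 1 lower. Vcam1KO2 had Tet1 higher and Ezh1 lower (background 51.4% called, 25.3% higher and 26.1% lower). Between the clones, Dnmt3a and Tet1 were higher in Vcam1KO1 than in Vcam1KO2 (background 38.7% called, 20.2% of genes higher in Vcam1KO1 and 18.5% lower). Separate ranges were also common among all tested genes. Between both clones and control, 2 of the 10 genes (Dnmt3a and Tet1, both higher) and 44.2% of all tested genes had libraries that did not overlap, and the share of all tested genes was 66.0% for Vcam1KO1 and 62.1% for Vcam1KO2 against control and 54.9% between the clones. With shares of this size, a separate range in 3 against 3 libraries is no result on its own.

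**Figure D1:**
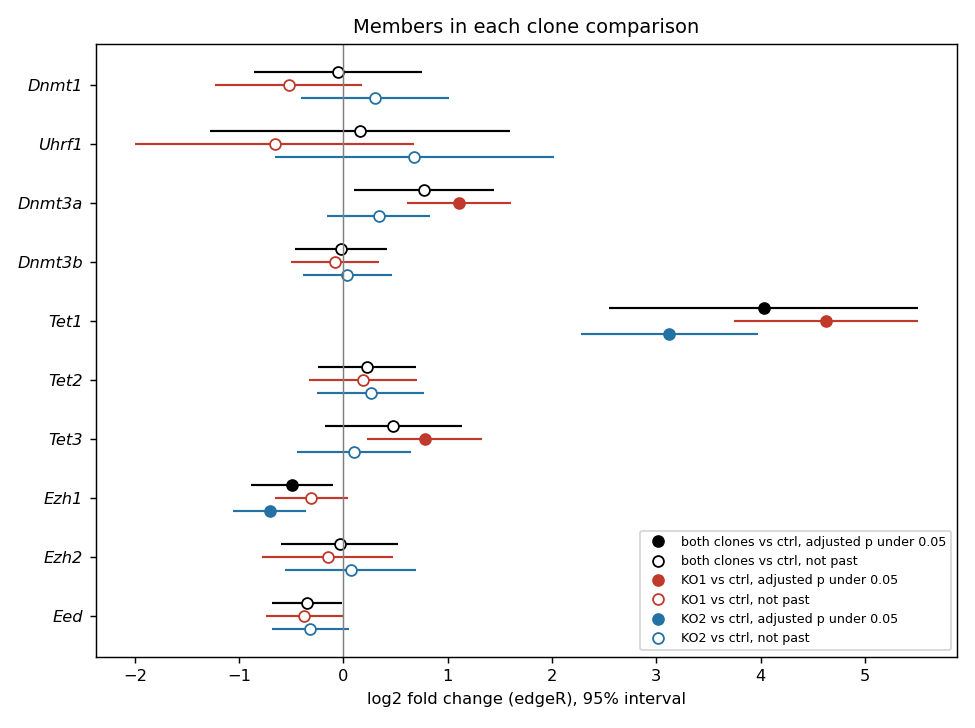
Log2 fold change of each gene (horizontal axis) for both clones, Vcam1KO1 and Vcam1KO2 against control, from edgeR, with 95% intervals that are not adjusted for the number of genes. Filled points have an adjusted p under 0.05: Tet1 is filled in all 3 comparisons, Ezh1 for both clones together and Vcam1KO2, and Dnmt3a and Tet3 for Vcam1KO1 only.

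Dnmt1 (chromosome 9, 20907209-20959888, minus strand) and Uhrf1 (chromosome 17, 56303321-56323486, plus strand), which keep methylation in place through cell division, did not pass in any comparison by edgeR. Dnmt1 stood at 177, 174 and 131 CPM in the control libraries, at 123, 151 and 59.3 in Vcam1KO1 and at 164, 173 and 257 in Vcam1KO2. Uhrf1 stood at 133, 145 and 89.7 CPM in control, at 87.6, 129 and 16.01 in Vcam1KO1 and at 140, 156 and 292 in Vcam1KO2. For both genes the clone libraries held the lowest and the highest level of all 9, replicate 3 of Vcam1KO1 and replicate 3 of Vcam1KO2, so that the groups overlapped. The log2 fold change of both clones against control was -0.05 ± 0.36 (SE, n = 6 against 3; adjusted p = 0.92 by edgeR's quasi-likelihood test) for Dnmt1 and 0.16 ± 0.64 (adjusted p = 0.86, same test) for Uhrf1. The 95% interval for Dnmt1 ran from -0.86 to 0.75 on the log2 scale and that for Uhrf1 from -1.28 to 1.60, so that changes of over 1.5-fold in either direction lie inside both. Every Vcam1KO1 library lay below every Vcam1KO2 library for these 2 genes, as it did for 26.2% of all tested genes, with log2 differences of -0.83 ± 0.32 (adjusted p = 0.064, edgeR) for Dnmt1 and -1.34 ± 0.60 (adjusted p = 0.11, edgeR) for Uhrf1. Other settings called both genes lower in Vcam1KO1 than in Vcam1KO2: DESeq2 (adjusted p = 0.030 for Dnmt1 and 0.043 for Uhrf1) and edgeR with no filter on low counts (adjusted p = 0.030 and 0.049). Without replicate 2 of Vcam1KO1, Dnmt1 was also called (adjusted p = 0.031, edgeR).

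The same libraries were lowest and highest for the proliferation list, and the levels of Mki67, a marker of cycling cells, were 155, 179 and 114 CPM in control, 216, 239 and 27.7 in Vcam1KO1 and 178, 180 and 332 in Vcam1KO2. None of the 40 proliferation genes passed in the comparison of both clones with control by edgeR or limma-voom, 1 had an unadjusted p under 0.05, and DESeq2 called 1 higher. Without replicate 3 of Vcam1KO1, 7 of the 40 were higher and 0 lower by edgeR, while 7913 of all 17369 genes tested in that fit were called in either direction. With all libraries, edgeR called 3 lower and 0 higher in Vcam1KO1 against control (median log2 fold change -0.29). It called 2 higher and 0 lower in Vcam1KO2 (median 0.67). Between the clones 5 were lower and 0 higher in Vcam1KO1 (median -0.89). Of all tested genes, 59.9%, 51.4% and 38.7% were called in these 3 comparisons. In RNA from a whole culture, fewer cycling cells and less of these messengers in each cell cannot be told apart. Within a library, log2 of Dnmt1 over the mean of the proliferation list was 1.54 ± 0.30 (SD, n = 3) in control, 1.53 ± 0.72 in Vcam1KO1 and 1.19 ± 0.13 in Vcam1KO2. For Uhrf1 the same ratio was 1.13 ± 0.19, 0.65 ± 0.22 and 1.13 ± 0.09. Neither ratio separated the 6 clone libraries from the 3 control libraries: the differences in mean log2 ratio were -0.18 (exact two-sided permutation p = 0.643) and -0.24 (exact permutation p = 0.262), with adjusted values of 0.738 and 0.516 over the 5 ratios computed. For Uhrf1 that mean joins unlike clones. The Vcam1KO1 libraries, at 0.47 to 0.89, all lay below the lowest control library at 0.93, a difference in the mean of -0.48. In Vcam1KO2 the difference from control was -0.0017.

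**Figure D2:**
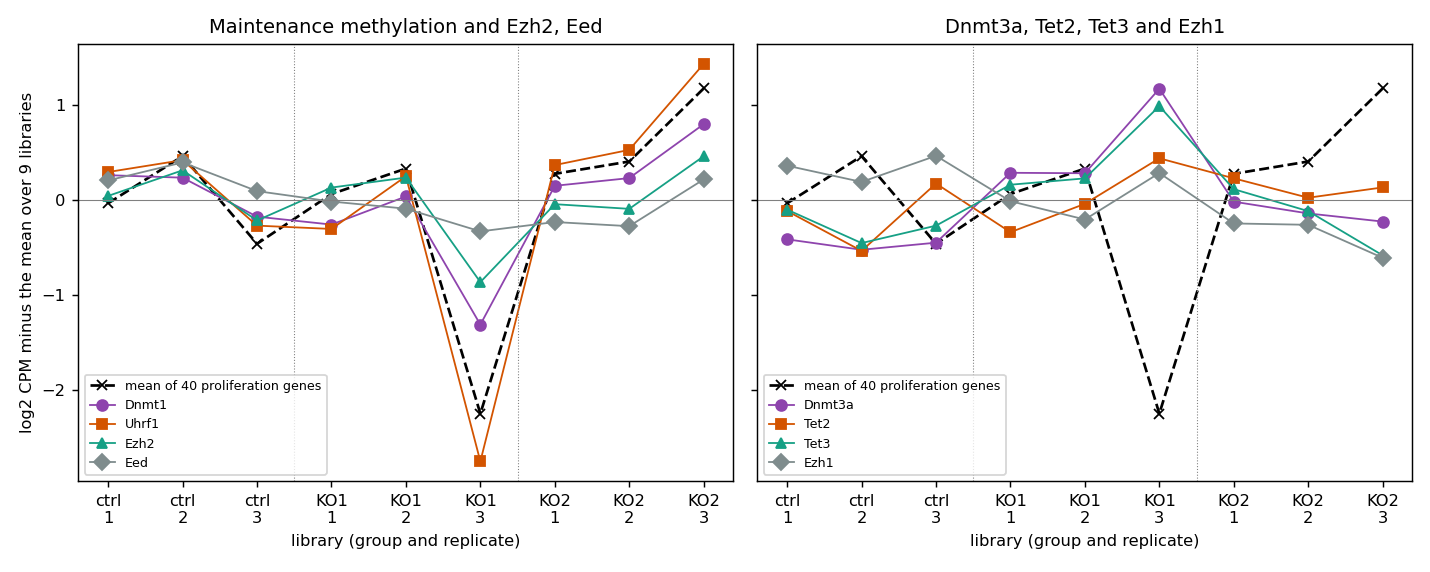
Log2 CPM of 8 of the genes in each library (horizontal axis: group and replicate) minus the gene's mean over the 9 libraries, with the mean of the 40 proliferation genes as a dashed line in both panels; the lines only guide the eye. In replicate 3 of Vcam1KO1 the proliferation mean falls to 3.53 log2 CPM together with Uhrf1, Dnmt1 and Ezh2 (left), while Dnmt3a and Tet3 reach their highest level there (right).

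Of the de novo methyltransferases, Dnmt3a (chromosome 12, 3806007-3914443, plus strand) stood higher in every clone library than in any control library, and Dnmt3b (chromosome 2, 153649450-153687730, plus strand) kept a low and even level. Dnmt3a stood at 29.5, 27.3 and 28.8 CPM in control, at 48.0, 47.8 and 88.7 in Vcam1KO1 and at 38.8, 35.6 and 33.6 in Vcam1KO2. The 3 groups did not overlap: control was lowest and Vcam1KO1 highest. Of all tested genes, 21.2% had every clone library above control and 28.7% had every Vcam1KO1 library above Vcam1KO2. In Vcam1KO1 Dnmt3a rose by 1.11 ± 0.22 on the log2 scale, 2.15-fold (adjusted p = 0.0020, edgeR). In Vcam1KO2 the log2 fold change was 0.34 ± 0.22 (adjusted p = 0.23, edgeR), and for both clones together it was 0.77 ± 0.30 (adjusted p = 0.064, edgeR). Dnmt3a passed in Vcam1KO2 in 1 of 13 alternatives, the edgeR fit on 6 libraries (0.33 ± 0.11, adjusted p = 0.036). For both clones it passed in 4 of 16, among them DESeq2 (adjusted p = 0.048) and the average of the clones' contrasts (adjusted p = 0.011, edgeR). The difference between the clones was itself past the threshold, 0.77 ± 0.22 on the log2 scale (adjusted p = 0.022, edgeR). Replicate 3 of Vcam1KO1 carried part of the size of these values: without it the log2 fold change was 0.75 in Vcam1KO1 (adjusted p = 3.3e-04, edgeR) and 0.41 between the clones (adjusted p = 0.017), and that of both clones, 0.50, passed (adjusted p = 0.023). The call between the clones was lost without any 1 of the 3 Vcam1KO2 libraries (adjusted p = 0.052, 0.068 and 0.076 by edgeR).

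Dnmt3b lay between 2.87 and 3.80 CPM in all 9 libraries, with a log2 fold change of -0.02 ± 0.20 for both clones against control (95% interval -0.46 to 0.42; adjusted p = 0.94, edgeR). Log2 of Dnmt3b over Dnmt3a within a library was -3.08 ± 0.21 (SD, n = 3) in control, -4.20 ± 0.64 in Vcam1KO1 and -3.37 ± 0.11 in Vcam1KO2. The ratio was lower in all 6 clone libraries than in the 3 control libraries, by 0.71 in the mean (exact two-sided permutation p = 0.0238, the smallest that 6 against 3 libraries can give), and did not pass after adjustment over the 5 ratios (adjusted p = 0.119). Dnmt3l, the partner protein without catalytic activity that is best known from germ cells, was counted at 0.417 to 1.77 CPM in control libraries and 0 to 0.170 CPM in clone libraries.

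Tet1 (chromosome 10, 62804570-62908996, minus strand) had the largest change of the 10 genes and rose in both clones. In control it was close to absent, with 12, 13 and 19 counts, or 0.0956, 0.240 and 0.240 CPM. Vcam1KO1 libraries held 355, 338 and 309 counts, or 5.32, 3.53 and 4.93 CPM, and Vcam1KO2 libraries held 107, 97 and 113 counts, or 1.83, 1.37 and 1.67 CPM. No library of one group reached the range of another. Of all tested genes, 21.2% had every clone library above control and 28.7% had every Vcam1KO1 library above Vcam1KO2. The log2 fold change was 4.62 ± 0.39 in Vcam1KO1 (adjusted p = 8.8e-06, edgeR), 3.13 ± 0.38 in Vcam1KO2 (adjusted p = 1.1e-04, edgeR) and 4.03 ± 0.66 for both clones, 16.3-fold (adjusted p = 0.0011, edgeR). Vcam1KO1 stood above Vcam1KO2 by 1.497 ± 0.331 on the log2 scale (adjusted p = 0.0067, edgeR). Since the control level rests on fewer than 20 counts per library, the fold change is less well fixed than the difference in CPM, which was 0.192 ± 0.083 (SD, n = 3) in control, 4.59 ± 0.94 in Vcam1KO1 and 1.63 ± 0.23 in Vcam1KO2. Tet1 was past the threshold in each alternative test, scaling, filter and left-out library, with log2 fold changes from 3.68 to 4.23 for both clones.

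Tet2 and Tet3, which catalyse the same oxidation, did not pass for both clones together. Tet2 (chromosome 3, 133463679-133545139, minus strand) stood at 14.9, 11.2 and 18.3 CPM in control, at 12.8, 15.8 and 21.98 in Vcam1KO1 and at 19.0, 16.5 and 17.8 in Vcam1KO2, and its groups overlapped. Its log2 fold change for both clones was 0.22 ± 0.21 (95% interval -0.24 to 0.69; adjusted p = 0.41, edgeR). Tet3 (chromosome 6, 83362373-83459084, minus strand) stood at 47.4, 37.1 and 42.1 CPM in control, at 56.8, 59.5 and 101 in Vcam1KO1 and at 55.0, 46.8 and 33.9 in Vcam1KO2. All Vcam1KO1 libraries lay above control and above Vcam1KO2, as they did for 32.9% and 28.7% of all tested genes. The Vcam1KO2 libraries spanned the control. Tet3 rose in Vcam1KO1 by 0.78 ± 0.25 on the log2 scale (adjusted p = 0.021, edgeR) and had a log2 fold change of 0.10 ± 0.24 in Vcam1KO2 (adjusted p = 0.76, edgeR), with a difference between the clones of 0.68 ± 0.25 (adjusted p = 0.054, edgeR). The difference between the clones passed in 6 of 13 alternatives, among them DESeq2 (adjusted p = 0.036) and upper-quartile scaling in edgeR (adjusted p = 0.037). The call in Vcam1KO1 was lost without replicate 3 of that clone (0.47, adjusted p = 0.061, edgeR) and without control replicate 2 (0.62, adjusted p = 0.088) or 3 (0.77, adjusted p = 0.053). The sum of the 3 Tet genes was 48.5 to 62.4 CPM in control, 74.9 to 128 in Vcam1KO1 and 53.3 to 75.8 in Vcam1KO2.

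**Figure D3:**
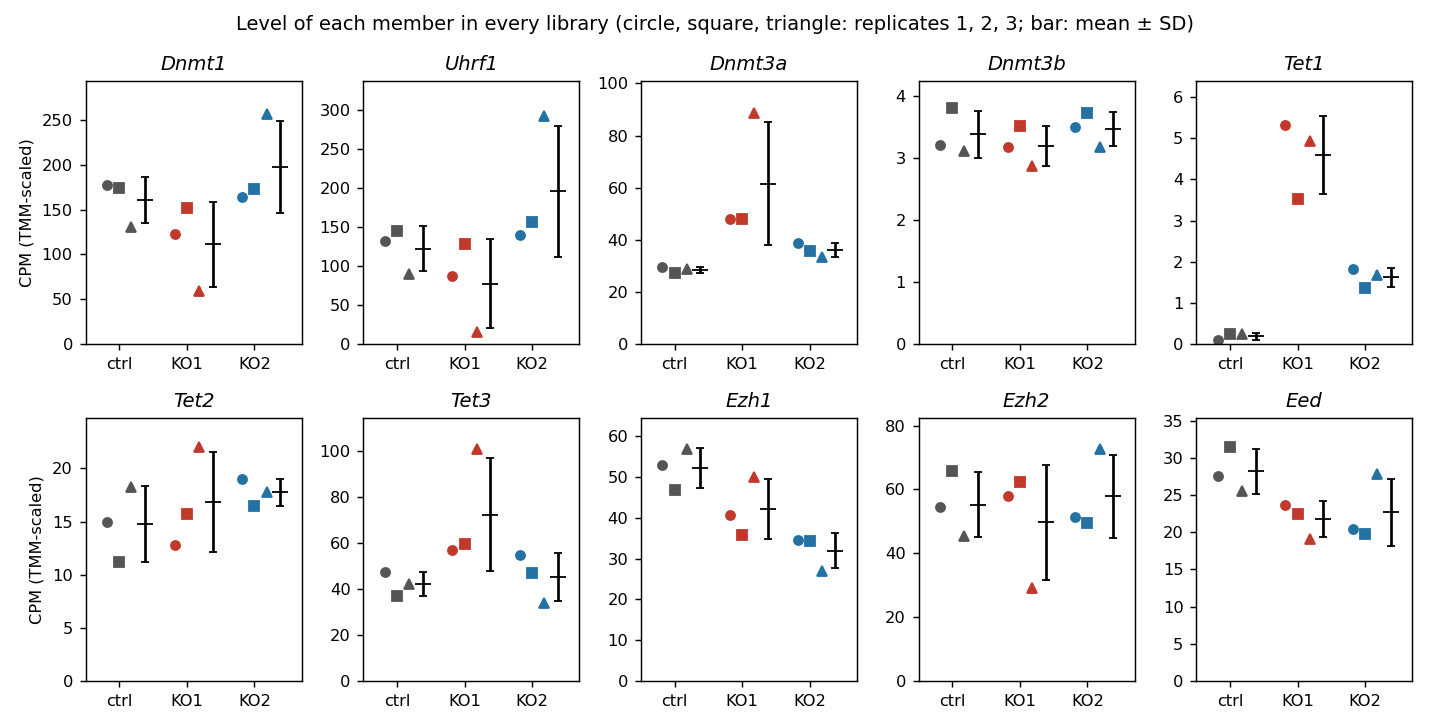
CPM of each gene (vertical axes start at 0 and differ between panels) in the 9 libraries, with circles, squares and triangles for replicates 1, 2 and 3 of each group and bars for the mean ± SD. Tet1 and Dnmt3a show 3 separate groups, Ezh1 is lowest in Vcam1KO2, and replicate 3 of Vcam1KO1 is the lowest library for Dnmt1, Uhrf1, Dnmt3b, Ezh2 and Eed and the highest for Dnmt3a, Tet2 and Tet3.

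Among the PRC2 genes, Ezh1 (chromosome 11, 101191115-101226463, minus strand) fell and Ezh2 (chromosome 6, 47530139-47595341, minus strand) did not pass. Ezh1 stood at 52.9, 47.0 and 56.8 CPM in control, at 40.8, 35.7 and 50.1 in Vcam1KO1 and at 34.7, 34.3 and 27.0 in Vcam1KO2. Vcam1KO2 lay wholly below both other groups, while 1 Vcam1KO1 library, replicate 3, reached into the control range. Of all tested genes, 31.4% had every Vcam1KO2 library below control and 28.7% had every Vcam1KO2 library below Vcam1KO1. Ezh1 fell by 0.71 on the log2 scale in Vcam1KO2 (SE 0.16, 1.63-fold lower; adjusted p = 0.0041, edgeR) and by 0.49 for both clones (SE 0.18; adjusted p = 0.047, edgeR). In Vcam1KO1 the log2 fold change was -0.31 ± 0.16 (adjusted p = 0.11, edgeR), and the clones differed by 0.40 ± 0.16 (adjusted p = 0.069, edgeR). The call for both clones lay close to the threshold: it was lost in 6 of 16 alternatives, among them leaving out control replicate 1 (adjusted p = 0.12, edgeR) or 3 (adjusted p = 0.14), and without replicate 3 of Vcam1KO1 the log2 fold change was -0.62 (adjusted p = 0.0069). The call in Vcam1KO2 held in all 13 of its alternatives.

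Ezh2 stood at 54.5, 65.7 and 45.5 CPM in control, at 57.9, 62.3 and 29.0 in Vcam1KO1 and at 51.3, 49.5 and 72.8 in Vcam1KO2. Its groups overlapped, and the lowest and the highest library were again replicate 3 of Vcam1KO1 and replicate 3 of Vcam1KO2. The log2 fold change for both clones was -0.04 ± 0.25 (95% interval -0.60 to 0.53; adjusted p = 0.92, edgeR). Log2 of Ezh2 over Ezh1 within a library was 0.07 ± 0.40 (SD, n = 3) in control, 0.17 ± 0.85 in Vcam1KO1 and 0.84 ± 0.51 in Vcam1KO2, with a difference between clone and control libraries of 0.44 (exact permutation p = 0.310, adjusted p = 0.516 over the 5 ratios). Log2 of Ezh2 over the proliferation list was 0.00 ± 0.20 in control, 0.39 ± 0.81 in Vcam1KO1 and -0.57 ± 0.20 in Vcam1KO2, with a difference between clone and control libraries of -0.09 (exact permutation p = 0.738, adjusted p = 0.738). That mean joins clones on opposite sides of control, 0.39 above it in Vcam1KO1 and -0.57 from it in Vcam1KO2, where all 3 libraries lay below the lowest control library.

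Eed (chromosome 7, 89954654-89980983, minus strand) stood at 27.6, 31.5 and 25.5 CPM in control, at 23.7, 22.5 and 19.0 in Vcam1KO1 and at 20.4, 19.8 and 27.8 in Vcam1KO2. All Vcam1KO1 libraries lay below control, as did 33.1% of all tested genes, and replicate 3 of Vcam1KO2 lay within the control range. The log2 fold change was -0.35 ± 0.15 for both clones (adjusted p = 0.087, edgeR), -0.38 ± 0.16 in Vcam1KO1 (adjusted p = 0.073) and -0.32 ± 0.16 in Vcam1KO2 (adjusted p = 0.14), so that none of the 3 passed by edgeR. DESeq2 called Eed lower for both clones (adjusted p = 0.034) and in Vcam1KO1 (adjusted p = 0.036), as did edgeR in Vcam1KO1 with RLE scaling or a fit on 6 libraries (adjusted p = 0.048 each). Without replicate 3 of Vcam1KO2, edgeR called it lower for both clones (adjusted p = 0.021) and in Vcam1KO2 (adjusted p = 0.024).

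Levels of different genes can be set beside each other only per length, here as CPM per kilobase of the longest coding transcript in GENCODE vM21. On that scale the order of the 10 genes in control was Uhrf1 at 34.1, Dnmt1 at 27.3, Ezh2 at 19.8, Eed at 13.7, Ezh1 at 12.4, Tet3 at 3.87, Dnmt3a at 2.95, Tet2 at 1.61, Dnmt3b at 0.781 and Tet1 at 0.0134. Uhrf1, Dnmt1 and Ezh2 overlapped with their neighbour in this order, and so did Eed and Ezh1; the other neighbours were separate in all 3 control libraries. The order was the same in both clones, but Tet3 and Dnmt3a, at 6.64 and 6.35 CPM per kilobase in Vcam1KO1 and at 4.15 and 3.72 in Vcam1KO2, then overlapped. In Vcam1KO1 each neighbour from Uhrf1 down to Dnmt3a overlapped with the next. The transcript chosen matters most for Dnmt3a, whose longest coding transcript has 9685 bases and whose median transcript has 814, and for Tet1, with 14369 and 567 bases. Per kilobase of the median transcript, the control level of Dnmt3a was 35.1 CPM, beside Uhrf1 at 36.0 and above Dnmt1 at 29.4, and Eed at 25.4 stood above Ezh2 at 23.1. The order therefore depends on the transcript length taken.

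The genes whose pattern over the 9 libraries was closest to each changed gene were sought among tested genes with a mean of at least 5 CPM, by the root mean square difference of log2 CPM after centring each gene on its mean. For Tet1 these were Grb14 (0.431), Pik3ip1 (0.453) and Chst11 (0.455). For Ezh1 they were Trim41 (0.0765), Tpra1 (0.0770) and Alkbh6 (0.0775). The nearest genes of Tet1 were thus farther from it than those of Ezh1 from Ezh1, on a scale that grows with the range of the gene.

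The partners of the enzymes were read from lists of textbook members, described by counts beside the background of 43.0%. Of 10 further PRC2 subunits and accessory proteins, 4 were lower in the clones by edgeR and 6 did not pass, with a median log2 fold change of -0.34 against 0.07 for all genes. For both clones together none was higher by edgeR, limma-voom or DESeq2, and 5 of the 10 had an unadjusted p under 0.05 in either direction. In Vcam1KO1 6 were lower and none higher by each of the 3 tools (7 at an unadjusted p under 0.05 in edgeR), and in Vcam1KO2 4 were lower and 1 higher by each of them. Of all tested genes, edgeR called 59.9% in Vcam1KO1 (30.0% lower) and 51.4% in Vcam1KO2 (26.1% lower). The gene that rose in Vcam1KO2 was the histone-binding subunit Rbbp7, named after its values were seen, at 166 to 196 CPM in control, 163 to 177 in Vcam1KO1 and 284 to 325 in Vcam1KO2 (0.73 ± 0.11 on the log2 scale, adjusted p = 3.7e-04, edgeR). Epop, which joins PRC2 to Elongin, stood at 20.3 to 22.6 CPM in control and 3.80 to 6.58 CPM in the clones, and fell by 2.21 on the log2 scale (SE 0.19; adjusted p = 2.5e-05, edgeR). Phf19, whose Tudor domain reads methylated lysine 36 of histone H3, stood at 5.45 to 7.52 CPM in control, 0.335 to 0.783 in Vcam1KO1 and 1.83 to 3.37 in Vcam1KO2, and fell by 2.20 (SE 0.63; adjusted p = 0.020, edgeR). Lcor, whose locus also encodes a PRC2 accessory protein, stood at 37.3 to 49.1 CPM in control and 18.2 to 28.4 in the clones, and fell by 0.93 (SE 0.17, adjusted p = 0.0018, edgeR). In these 3 genes no clone library reached the control range. Aebp2 was the fourth gene called. The core subunit Suz12, chosen for mention after its values were seen, was lower in every clone library but had an adjusted p of 0.10 (edgeR, log2 fold change -0.39 ± 0.18).

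PRC1, the complex that binds the mark of PRC2 and ubiquitinates histone H2A, moved in both directions: of 23 subunits, 7 were higher, 7 lower and 9 did not pass, with a median log2 fold change of -0.09. Cbx7, a chromobox subunit that reads lysine 27 methylation, stood at 4.89 to 9.26 CPM in control and 22.3 to 42.8 in the clones, a log2 fold change of 2.27 ± 0.30 (adjusted p = 3.3e-04, edgeR). Cbx6, of the same family, stood at 150 to 190 and 398 to 517 CPM (1.47 ± 0.14, adjusted p = 4.4e-05, edgeR). Phc2, a subunit that lets PRC1 cluster, stood at 266 to 330 and 76.9 to 146 CPM and fell by 1.48 (SE 0.23; adjusted p = 7.1e-04, edgeR). For each of these 3 the clone and control libraries were separate. Of 10 enzymes that counteract Polycomb, such as the demethylase Kdm6a, 9 were tested and none passed by edgeR, limma-voom or DESeq2, with 1 at an unadjusted p under 0.05 in edgeR.

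Among 14 partners and readers of DNA methylation, 3 were higher, 1 lower and 10 did not pass, with a median log2 fold change of 0.10. Zbtb33 (Kaiso), a zinc finger protein that binds methylated CpG, stood at 11.7 to 15.2 CPM in control and 19.5 to 39.4 in the clones (log2 fold change 1.08 ± 0.26, adjusted p = 0.0081, edgeR). Mbd3, a subunit of the NuRD complex, stood at 77.9 to 94.9 and 107 to 179 CPM (0.73 ± 0.18, adjusted p = 0.0089, edgeR). Uhrf2, the paralog of Uhrf1, stood at 76.3 to 89.2 and 85.6 to 161 CPM (0.70 ± 0.18, adjusted p = 0.013, edgeR). Zbtb33 and Mbd3 were separate between clones and control, and Uhrf2 overlapped in replicate 3 of Vcam1KO1. The gene that fell was Dnmt3l, at a log2 fold change of -3.93 ± 0.98 (adjusted p = 0.010, edgeR) and under 1 CPM in the mean over all libraries.

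Of 11 genes of 5-methylcytosine removal, 3 fell and 8 did not pass; edgeR and limma-voom called none higher, DESeq2 called 2 higher, and 4 had an unadjusted p under 0.05 in edgeR. Cxxc4, a CpG-binding protein known to restrain Tet2, was the gene with the largest change, from 841, 307 and 628 counts in control to between 0 and 4 counts in the clone libraries (6.77 ± 1.14 and 0.0189 ± 0.0271 CPM, SD; adjusted p = 5.2e-05, edgeR). The DNA glycosylases Neil1 and Smug1 fell by 0.68 (SE 0.22; adjusted p = 0.032, edgeR) and 0.56 (SE 0.15; adjusted p = 0.013, edgeR) on the log2 scale. Of 10 genes that supply the methyl donor or 2-oxoglutarate, the cofactor of the Tet enzymes, 3 rose, 1 fell and 6 did not pass. Idh2, which makes 2-oxoglutarate in mitochondria, stood at 120 to 144 CPM in control and 266 to 393 in the clones (1.36 ± 0.16, adjusted p = 1.7e-04, edgeR). Idh3a of the citric acid cycle rose by 0.63 ± 0.14 (adjusted p = 0.0055, edgeR), and Mthfd1 of the folate cycle fell by 0.76 (SE 0.23; adjusted p = 0.023, edgeR).

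**Figure D4:**
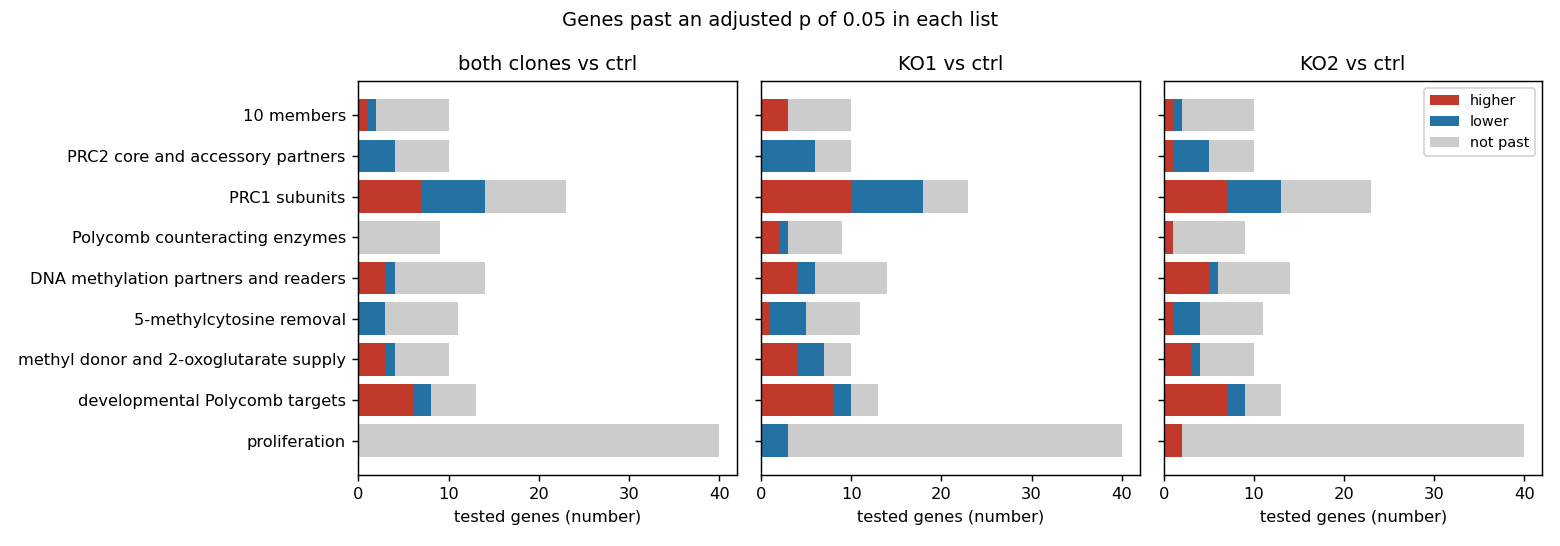
Number of tested genes (horizontal axis) in the 10 enzymes and in 8 gene lists that were higher, lower or not past an adjusted p of 0.05 by edgeR, for both clones and each clone against the same control libraries. The PRC2 partners have 4 genes lower for both clones together and PRC1 has 7 in each direction; 43.0%, 59.9% and 51.4% of all tested genes are called in the 3 panels.

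Germline genes, which DNA methylation is known to silence in body cells, were mostly absent. Of 18 germline genes with methylated promoters, 8 to 13 had 0 counts in each library, with no separation of clones from control, and only 3 passed the filter on low counts. Their summed level was 2.997 to 4.45 CPM in control and 4.47 to 5.84 CPM in the clones. Brdt, a bromodomain protein of the testis, made up most of it, at 2.31 to 3.08 CPM in control and 3.996 to 5.43 CPM in the clones, and rose by 0.83 ± 0.22 on the log2 scale (adjusted p = 0.013, edgeR). Of 24 developmental regulators known as Polycomb targets, 13 passed the filter, 6 of them higher and 2 lower in the clones. A gene that is on in 1 group only can pass that filter through its high group, so these counts are not read against the background. Tbx2, a T-box repressor, stood at 0.0185 to 0.135 CPM in control, 4.27 to 12.6 in Vcam1KO1 and 2.28 to 3.15 in Vcam1KO2 (adjusted p = 5.5e-04, edgeR). Tbx3, of the same family, stood at 0.0738 to 0.240, 0.674 to 0.950 and 5.74 to 8.21 CPM (adjusted p = 0.0092, edgeR). Pax6 went the other way, from 2.39 to 3.23 CPM in control to 0.0939 to 0.210 in Vcam1KO1 and 0 to 0.0592 in Vcam1KO2 (adjusted p = 6.2e-04, edgeR). Tbx2 was higher in Vcam1KO1 and Tbx3 in Vcam1KO2, with no overlap between the clones in either gene.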

How the data were processed

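The authors pseudoaligned paired-end reads of stranded mRNA libraries with kallisto 0.46.1, with bias correction, to the mouse transcripts of GENCODE vM24 (GRCm38, mm10). The deposited values are estimated counts per gene symbol for 9 libraries, all whole numbers and not normalized; the step that summed transcripts to genes is not given in the sources used here. Pairs shared by paralogs or overlapping transcripts are divided by kallisto's model, so the counts are estimates. No column of values was left out.

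Counts were filtered with filterByExpr, scaled with TMM and tested with edgeR 4.0.16 (R 4.3.3). Both clones (6 libraries) were compared with control (3) in a fit of 2 groups, and each clone in a fit of 3 groups. Log2 levels used a prior count of 2. Ratios within a library were compared by an exact permutation test over all 84 ways to assign 6 and 3 libraries. Libraries were deep, so that counting error is small except for Tet1 in control, and the spread between libraries sets the precision. Genes at 3 counts or fewer in a whole group were treated as not detected there.

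Named genes are the 10 enzymes, Vcam1, Mki67, up to 3 called genes of largest change per list among those averaging 1 CPM or more, and the 3 genes nearest to each called enzyme. The enzymes and lists were chosen with earlier results of these data known. Alternatives were limma-voom 3.58.1, DESeq2 1.42.0, upper-quartile and RLE scaling, no filter, a filter at 1 CPM, a mean of the contrasts of each clone, fits restricted to 6 libraries and leaving out each library. The model was tested on simulated data. Positions are from GENCODE vM21, another release on GRCm38, and promoters from RefSeq on GRCm38.p6, which matched all 10 genes. Figures were drawn with python 3.11.15 and matplotlib 3.10.9. Part of the genotype that all groups share is not reported here.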

Additional observations from a re-analysis of the deposited data

Results flagged for a closer look

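Replicate 3 of Vcam1KO1 lay far from the other 5 clone libraries in 3 measures. Dnmt3a stood there at 88.7 CPM, against 33.6 to 48.0 CPM in the others. Log2 of Dnmt1 over the proliferation list was 2.36 there, against 1.04 to 1.29, and log2 of Ezh2 over that list was 1.32, against -0.78 to 0.01. In each measure the gap to the nearest library, divided by the whole range, exceeded Dixon's critical value for 6 samples, by little for Ezh2. The value holds for samples of 1 group, where chance exceeds it in about 1 in 20, but these 6 libraries come from 2 clones that differ, and all 10 genes and 5 ratios were searched, so it gives no chance for these measures. The 3 measures share the library in which the proliferation list was lowest, and 2 of them use that list, so they are not independent. The cause was not tested.

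The 2 clones differed from each other in Tet1, by 1.497 ± 0.331 on the log2 scale, and in Dnmt3a, by 0.77 ± 0.22, both higher in Vcam1KO1 and both past the threshold in edgeR's test of that difference. Tet1 held in all 13 alternatives, while the call of Dnmt3a was lost without any 1 of the Vcam1KO2 libraries (adjusted p = 0.052, 0.068 and 0.076 by edgeR). Each clone is a single culture, so the difference cannot be told apart from variation among clones.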

How the results depend on the processing

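No paired analysis was possible because the labels give the libraries no shared replicate numbers. Tet1 was called in every alternative, and the number of all genes called stayed within 1.5 times in each. The counts of called enzymes moved more. DESeq2 gave 2 higher and 2 lower for both clones, 1 lower in Vcam1KO1 and 2 lower (Dnmt1 and Uhrf1) in Vcam1KO1 against Vcam1KO2. Upper-quartile scaling gave 0 lower for both clones and 4 higher in Vcam1KO1 against Vcam1KO2. RLE scaling gave 1 lower in Vcam1KO1, no filter the same 2 genes lower between the clones, the average of contrasts 2 higher for both clones, and fits on 6 libraries 1 lower in Vcam1KO1 and 2 higher in Vcam1KO2. With 1 library left out, the counts for both clones ran from 1 to 2 higher and 0 to 2 lower, Vcam1KO1 from 0 to 1 lower, Vcam1KO2 from 1 to 2 lower, and between the clones from 1 to 4 higher and 0 to 1 lower. Signs turned for values near 0: Uhrf1 of both clones by limma-voom (-0.23 on the log2 scale), and by upper-quartile scaling Dnmt3b in Vcam1KO2 (-0.028) and Eed between the clones (0.0042). With 1 library left out, the log2 value ran from -0.28 to 0.10 for Dnmt1, -0.082 to 0.026 for Dnmt3b, -0.17 to 0.080 for Ezh2 and -0.24 to 0.39 for Uhrf1 in both clones. It ran from -0.34 to 0.13 for Ezh2 and -0.053 to 0.35 for Tet2 in Vcam1KO1, and from -0.020 to 0.10 for Dnmt3b, -0.14 to 0.19 for Ezh2 and -0.073 to 0.25 for Tet3 in Vcam1KO2. Between the clones it ran from -0.18 to 0.081 for Eed, -0.42 to 0.055 for Ezh2 and -0.31 to 0.041 for Tet2. For Ezh2 over the proliferation list, the difference between clone and control libraries ran from -0.37 to 0.050. The cause of these changes was not tested. For Dnmt1, Uhrf1 and Ezh2 the spread between libraries, more than depth, limited what could be seen.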
